A study of Rattus norvegicus with 12 samples.

Results

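Retinoic acid is made in 2 oxidation steps from retinol and acts through nuclear receptors, and the genes described here cover its synthesis, breakdown and response. The 8 genes, Aldh1a1, Aldh1a2, Dhrs3, Cyp26b1, Stra6, Rara, Rarb and Rarg, were chosen by symbol, and all 8 were found among the 37246 genes listed in the table of the left atrium, of which 21239 had counts. The symbols and the NCBI gene identifiers of the 8 genes matched the RefSeq gene table. Levels are given as CPM, the count of a gene scaled to the total count of its library, and fold changes are on a log2 scale after scaling of the libraries by the TMM method of edgeR.

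Stra6 is the membrane receptor that takes up retinol from its plasma carrier. Retinol is oxidised to retinaldehyde, which the retinaldehyde dehydrogenases Aldh1a1 and Aldh1a2 turn into retinoic acid, and Dhrs3 reduces retinaldehyde back to retinol. Cyp26b1 is a cytochrome P450 that hydroxylates retinoic acid and so clears it. Rara, Rarb and Rarg encode the retinoic acid receptors, which bind DNA as partners of the retinoid X receptors. Retinoic acid is known for patterning the atria and the inflow tract of the embryonic heart, and Aldh1a2 is known as an enzyme of the epicardium and the mesothelium.

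Left atrial RNA was sequenced from WKY rats, the normotensive control strain, and from SHRs, which develop hypertension, with 3 libraries in each of 4 groups. The WKY and SHR groups received saline (7.5 ml/kg/day). In the ARB-treated group SHRs were given valsartan, a blocker of the angiotensin receptor, at 30 mg/kg/day. In the ARNI-treated group they were given sacubitril/valsartan, which adds an inhibitor of neprilysin, at 60 mg/kg/day. All rats were male, 14 weeks old at purchase and treated for 4 weeks. For the 6 WKY and SHR libraries, the strain named in the title is the opposite of the strain in the library name, and the library name set the group. The ARB and ARNI libraries carry a WKY strain label beside an SHR phenotype and were taken as SHRs, as the study's methods state. Mettl24, a gene chosen after its values were seen, was at 3.02 to 3.58 CPM in the 3 WKY libraries and at most 0.0688 CPM in the other 9.

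Several libraries went against their label of left atrium. Myl7 and Myl4 encode the light chains of myosin found in atrial muscle, and Myl2 and Myl3 those found in the ventricles, so the share of Myl7 and Myl4 in the counts of all 4 genes was used as a light-chain chamber share. It was 0.177%, 0.0943% and 0.0304% in WKY replicates 1, 2 and 3, where Myl7, a defining marker of the atrium, lay between 0.889 and 15.9 CPM. In the SHR group it was 99.9% in replicates 1 and 3 and 56.8% in replicate 2. In the ARB-treated group it was 99.9% and 99.8% in replicates 1 and 2 and 56.0% in replicate 3. ARNI replicate 2 had a share of 0.242%, and ARNI replicates 1 and 3 had 99.9% and 98.9%. The WKY libraries and ARNI replicate 2 thus carried ventricular light chains, and SHR replicate 2 and ARB replicate 3 carried both kinds. The difference in share between the SHR and WKY groups was 85.5 percentage points, with p = 0.1 in a two-sided exact permutation test, the smallest p that 3 against 3 libraries allow. Strain and light-chain share therefore cannot be told apart between these groups, and each group comparison was also computed without the 3 libraries that stood apart from their group. Total counts ranged from 11252361 to 15823525 per library, and a count of 0 allowed a level of up to 0.190 to 0.267 CPM.

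The start regions of 2 of the genes are shown, because Rarb is the textbook example of a gene switched on by its own receptor and Aldh1a2 had the largest fold change that passed the test. Both are RefSeq promoters of the GRCr8 build that span the annotated start, 300 bases long and on the plus strand, at chr15:11336142-11336441 for Rarb and chr8:80758391-80758690 for Aldh1a2. Capitals mark a direct repeat of the receptor core motif with a spacer of 5 bases, where the core motif was AGGTCA or AGTTCA, with GGGTCA and also GGTTCA counted as further forms, and both strands were searched.
Rarb: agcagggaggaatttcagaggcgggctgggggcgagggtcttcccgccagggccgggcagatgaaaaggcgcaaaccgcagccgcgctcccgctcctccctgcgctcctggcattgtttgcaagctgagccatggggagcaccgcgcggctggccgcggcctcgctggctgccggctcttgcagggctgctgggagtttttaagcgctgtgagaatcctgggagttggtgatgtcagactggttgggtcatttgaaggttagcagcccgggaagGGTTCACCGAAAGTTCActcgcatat
Aldh1a2: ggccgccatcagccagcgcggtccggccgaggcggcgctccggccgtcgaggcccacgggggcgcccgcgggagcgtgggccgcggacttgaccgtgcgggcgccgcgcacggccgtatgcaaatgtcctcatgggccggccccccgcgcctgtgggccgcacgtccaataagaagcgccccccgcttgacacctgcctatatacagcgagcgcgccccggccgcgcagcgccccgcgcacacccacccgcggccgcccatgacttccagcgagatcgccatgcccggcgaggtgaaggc
The repeat of the Rarb region spanned bases 275 to 291 and read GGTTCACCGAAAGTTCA. Such a repeat was found in 1 of the 9 start regions of the 8 genes (Rarg has 2) and in 128 of 33469 rat promoters of the same length (0.382%). Among 41 promoters of other retinoid genes it was found in 1, that of Cyp26a1. A core motif of any kind stood in 5 of the 9 regions, against 44.4% of all promoters, and repeats with a spacer of 1 or 2 bases were found in none of the 9. The Aldh1a2 region held no core motif and was 76.0% G and C.

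The enzymes that make retinoic acid differed in opposite directions between the SHR and WKY groups, a comparison the study made to characterise hypertension and in which strain and light-chain share differ together. Aldh1a2 was at 4.18, 4.61 and 6.49 CPM in WKY replicates 1, 2 and 3 and at 18.5, 10.3 and 37.2 CPM in the SHR replicates. Every SHR library lay above every WKY library, and the lowest SHR library, replicate 2, was the one with both kinds of light chain. The log2 fold change was 1.94 (SE 0.44, edgeR adjusted p = 0.0294). The WKY libraries had 164, 145 and 110 CPM of Aldh1a1, and the SHR replicates had 74.9, 60.9 and 91.5 CPM, again without overlap. Its log2 fold change was -1.02 (SE 0.17, edgeR adjusted p = 0.0141), close to the fold threshold of 1. Because the tissue was measured in bulk, fewer cells of a type and less RNA per cell cannot be told apart. These were the 2 DEGs among the 7 genes tested, where DEGs were called at a log2 fold change of 1 or more in size and an adjusted p up to 0.05, and 8.89% of the 13794 genes tested were DEGs. Aldh1a1 counts were not whole numbers in 8 of the 12 libraries, so that reads could be shared with similar genes, and the level of its near relative Aldh1a7 was at most 0.451 CPM.

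**Figure D1:**
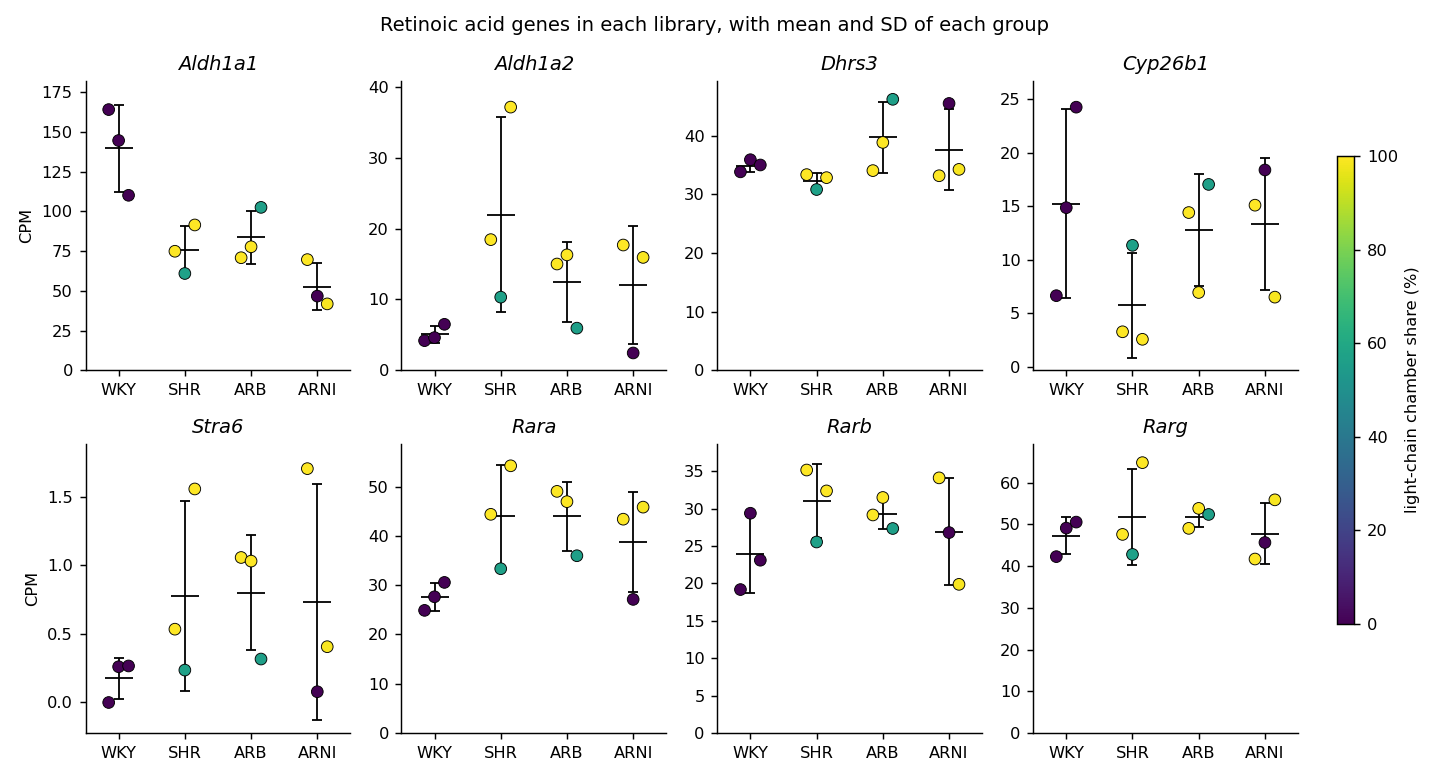
CPM of the 8 retinoic acid genes in each library (points, coloured by the light-chain chamber share in percent), with the mean (bar) and SD (error bars) of the 3 libraries of each group. Aldh1a2 lies between 4.18 and 6.49 CPM in the WKY group and between 10.3 and 37.2 CPM in the SHR group, while Aldh1a1 lies higher in the WKY group than in any other library.

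Both calls depended on single libraries, that of Aldh1a1 also on the scaling and that of Aldh1a2 also on the set of libraries fitted. Aldh1a2 lost its call without any 1 of the 3 WKY libraries or without SHR replicate 1 (edgeR adjusted p between 0.0719 and 0.110), while its fold change stayed between 1.40 and 2.26 over all leave-outs. Aldh1a1 lost its call without WKY replicate 1 or 2 or SHR replicate 1 by its adjusted p and without SHR replicate 2 by its fold change, which was then -0.92 (edgeR adjusted p = 0.00734). The DEGs over all genes fell from 1226 to 393, 353 and 348 without WKY replicates 1, 2 and 3. They numbered 577, 2205 and 1147 without SHR replicates 1, 2 and 3, so lost calls were not particular to these genes. DESeq2 called both genes (DESeq2 adjusted p = 4.9e-06 for Aldh1a1 and 0.000201 for Aldh1a2). With libraries scaled by total counts alone, Aldh1a2 passed both thresholds (2.11), and the Aldh1a1 fold change was -0.88 and under the threshold. In one fit of all 12 libraries without a covariate, Aldh1a1 was a DEG and Aldh1a2 was not. With the light-chain share as a covariate in a fit of all 12 libraries, the Aldh1a2 difference between the SHR and WKY groups was -0.49 (SE 0.37, edgeR adjusted p = 0.531). The Aldh1a1 difference was -0.98 (SE 0.37) in that fit, with an edgeR adjusted p of 0.251. The share was at most 0.177% in the WKY libraries and at least 56.8% in the SHR libraries. Differences between these groups in that fit thus rest mainly on the slope within the SHR, ARB and ARNI groups. Over all genes, 104 were DEGs in that fit, against 579 without the covariate.

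The 2 enzymes also parted in ARNI replicate 2, the treated SHR library with ventricular light chains. Aldh1a2 was at 2.44 CPM there, below all 3 WKY libraries, and the ARB library with both kinds of light chain, replicate 3, was at 5.95 CPM, within the WKY range. Aldh1a1 was at 46.7 CPM in ARNI replicate 2, and all 9 SHR libraries, treated or not, lay between 41.8 and 103 CPM, below the lowest WKY library. The share of all genes split in this way was not counted. Between the untreated SHR and WKY groups alone, 49.6% of all genes tested did not overlap. ARNI replicate 2 is a single library.

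Cyp26b1, the enzyme that clears retinoic acid, had levels of 6.65, 14.9 and 24.3 CPM in WKY replicates 1 to 3, against 3.28, 11.4 and 2.57 CPM in the SHR replicates. The groups overlapped through SHR replicate 2, and the log2 fold change of -1.53 (SE 0.71) did not pass the test (edgeR adjusted p = 0.157). It passed without SHR replicate 2 (-2.55, SE 0.56, edgeR adjusted p = 0.0139), but was -1.01 without WKY replicate 3 and -1.15 without SHR replicate 3. With the light-chain share as a covariate it was -0.32 (edgeR adjusted p = 0.873). Dhrs3, which reduces retinaldehyde, had 33.8, 35.9 and 35.0 CPM in WKY rats and 33.4, 30.8 and 32.9 CPM in SHRs, with SHRs lower. The groups did not overlap, but the log2 fold change was only -0.25 (SE 0.08, edgeR adjusted p = 0.0699). Stra6 was near the limit of detection, with 0, 3 and 3 counts in WKY rats and 8, 3 and 23 in SHRs. It was removed by the filter on low counts, so it was not tested with the other genes. DESeq2, run without that filter, gave a log2 fold change of 1.96 (SE 1.21, DESeq2 adjusted p = 0.249).

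Of the receptors, Rara had the largest difference between the groups. The WKY replicates had 24.9, 27.7 and 30.6 CPM and the SHR replicates 44.4, 33.4 and 54.3 CPM, without overlap, and the log2 fold change was 0.52 (SE 0.16, edgeR adjusted p = 0.0598). Without SHR replicate 2 it was 0.66 (edgeR adjusted p = 0.0068), still under the fold threshold. Rarb, whose start region holds the repeat shown above, was at 19.2 to 29.4 CPM in the WKY group and 25.5 to 35.2 CPM in the SHR group, a log2 fold change of 0.24 (SE 0.18, edgeR adjusted p = 0.353). Rarg was at 42.3 to 50.6 CPM and 42.8 to 64.8 CPM, and its fold change of -0.02 (95% interval -0.36 to 0.33) lay within the fold threshold on both sides. Together with the enzymes, 4 of the 7 genes tested did not overlap between the groups, and 49.6% of all genes tested did not.

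**Figure D2:**
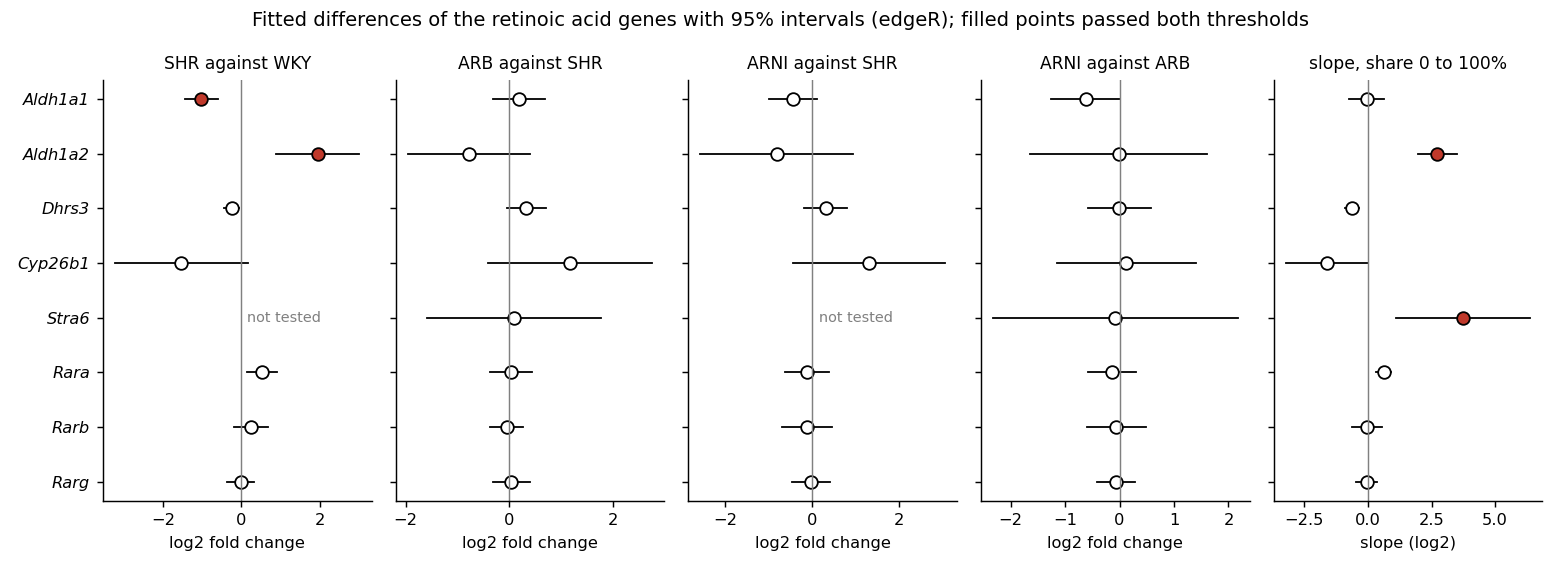
Log2 fold changes of the 8 retinoic acid genes in the 4 group comparisons, and the log2 slope on the light-chain chamber share from 0 to 100%, with 95% intervals from edgeR. Filled points passed both thresholds: Aldh1a1 (-1.02) and Aldh1a2 (1.94) between the SHR and WKY groups, and Aldh1a2 (2.71) and Stra6 (3.73) in the slope.

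The treated groups were compared with the SHR group to see which genes moved with valsartan or sacubitril/valsartan. None of the 8 genes tested in the ARB-treated group, none of the 7 in the ARNI-treated group and none of the 8 between the treated groups was a DEG, where 0% of 13979, 0% of 13955 and 0% of 13948 genes were. At an unadjusted p under 0.05, edgeR called 225, 227 and 539 genes, none of them among the 8. With same-numbered ARNI and SHR libraries paired, it called 731 of the 13955 genes tested at that level, and 0 after adjustment. The 731 included 2 of the 7 genes tested here, Cyp26b1 and Aldh1a2. Replicate 2 had the lowest light-chain share of both groups, and its part in the pairing was not tested. The pairing was chosen from correlations in these same data, and the labels do not say that same-numbered rats were paired. DESeq2 called 3, 7 and 18 DEGs, none of them among the 8. The ARB and ARNI comparisons share the SHR libraries, so their values are given side by side and are not independent.

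Against the SHR group, Cyp26b1 had the largest fitted differences of the genes tested among the 8. It was at 14.4, 6.95 and 17.04 CPM in the ARB libraries and at 15.1, 18.4 and 6.51 CPM in the ARNI libraries, against the 2.57 to 11.4 CPM of the SHR group. SHR replicate 2 lay within both treated ranges, so that the groups overlapped. The log2 fold change was 1.18 (95% interval -0.40 to 2.77) in the ARB-treated group and 1.30 (95% interval -0.45 to 3.05) in the ARNI-treated group. With ARNI and SHR libraries paired by number, a pairing chosen from these data, the Cyp26b1 log2 fold change was 1.47 (SE 0.31). It did not pass after adjustment (unadjusted p = 0.00467 and adjusted p = 0.844 in edgeR). In each of the 3 SHR groups, the library with the lowest light-chain share had the highest Cyp26b1 level. Among the 6 libraries with a share of at least 98.9%, the 2 SHR libraries were at 2.57 and 3.28 CPM and the 4 treated libraries at 6.51 to 15.1 CPM. This split was made after seeing the data and pools both treatments. The share of all genes that split in this way was not counted. The fold changes without the 3 libraries that stood apart, an alternative chosen after seeing the data, were 1.90 and 1.94. Neither passed the correction over all genes (unadjusted p = 0.00746 and 0.0126, adjusted p = 0.99996 and 0.99989 in edgeR). At an unadjusted p under 0.05, edgeR called 318 of 14083 genes in the ARB fit and 359 of 14136 in the ARNI fit.

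Aldh1a2 was at 15.01, 16.3 and 5.95 CPM in the ARB libraries and 17.7, 2.44 and 15.9 CPM in the ARNI libraries, and both groups overlapped the SHR group. The log2 fold changes were -0.78 (95% interval -1.96 to 0.40) and -0.82 (95% interval -2.57 to 0.93). With ARNI and SHR libraries paired by number, the Aldh1a2 log2 fold change was -0.98 (SE 0.37, unadjusted p = 0.0448 and adjusted p = 0.844 in edgeR). Aldh1a1 was at 70.9, 77.8 and 103 CPM in the ARB libraries and 69.7, 46.7 and 41.8 CPM in the ARNI libraries. All ARNI values lay below all ARB values, as did those of 7.52% of the genes tested. The log2 fold change between the ARNI-treated and ARB-treated groups was -0.62 (95% interval -1.25 to 0.01), against -0.44 between the ARNI-treated and SHR groups. Paired by number, the Aldh1a1 value between the ARNI-treated and SHR groups was -0.46 (SE 0.22, edgeR adjusted p = 0.844). Dhrs3 was at 34.1, 38.9 and 46.2 CPM in the ARB libraries, all above the SHR libraries, as in 2.40% of the genes tested, with a log2 fold change of 0.33 (95% interval -0.05 to 0.71). In the ARNI-treated group Dhrs3 was at 33.2, 45.5 and 34.3 CPM, a log2 fold change of 0.32 (95% interval -0.18 to 0.81), and none of the genes was free of overlap with the SHR group, against 6.56% of all genes.

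The mean levels of the receptors lay close together in the SHR, ARB and ARNI groups. Rara averaged 44.0 ± 10.5, 44.0 ± 7.02 and 38.8 ± 10.2 CPM (SD, n = 3 each), Rarb 31.0 ± 4.95, 29.3 ± 2.08 and 26.9 ± 7.12 CPM and Rarg 51.8 ± 11.6, 51.8 ± 2.46 and 47.8 ± 7.33 CPM. Their group means differed by less than the SD of the SHR or the ARNI group. Stra6 had 16, 15 and 4 counts in the ARB libraries and 27, 1 and 6 in the ARNI libraries, and the groups overlapped each other and the SHR group.

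Because the light-chain share differed within each of the 3 SHR groups, untreated and treated, each gene was also fitted against it over all 12 libraries with the group in the model. The slope, on a log2 scale from a share of 0 to 100%, rested mainly on SHR replicate 2, ARB replicate 3 and ARNI replicate 2. Aldh1a2 and Stra6 rose with the share, 2 of the 8 genes, and of the 14452 genes tested 6.67% rose and 13.7% passed in either direction. The Aldh1a2 slope was 2.71 (SE 0.34, edgeR adjusted p = 0.000519), and it passed both thresholds without any single library, at 2.54 to 2.96. In each of these groups the library with the lowest share had the lowest Aldh1a2 level, at 10.3, 5.95 and 2.44 CPM, against 15.01 to 37.2 CPM in the other 6 libraries of these groups. The Stra6 slope was 3.73 (SE 1.19, edgeR adjusted p = 0.0397). It rested on 0 to 27 counts per library and was lost when any 1 of 9 of the 12 libraries was left out.

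Rara and Dhrs3 had smaller slopes in opposite directions. With the adjusted p alone, under which 28.7% of genes passed, Rara rose (0.61, SE 0.14, edgeR adjusted p = 0.00915) and Dhrs3 fell (-0.62, SE 0.13, edgeR adjusted p = 0.00482). Rara was lowest in the library with the lowest share of each of the 3 SHR groups, at 33.4, 36.0 and 27.1 CPM, against 43.4 to 54.3 CPM in the other 6 libraries. Dhrs3 was highest in ARB replicate 3 and ARNI replicate 2, at 46.2 and 45.5 CPM, but lowest of its group in SHR replicate 2, at 30.8 CPM. The slopes of Cyp26b1 (-1.61, SE 0.73, edgeR adjusted p = 0.126), Aldh1a1 (-0.06, SE 0.31), Rarb (-0.04, SE 0.27) and Rarg (-0.05, SE 0.18) did not pass.

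**Figure D3:**
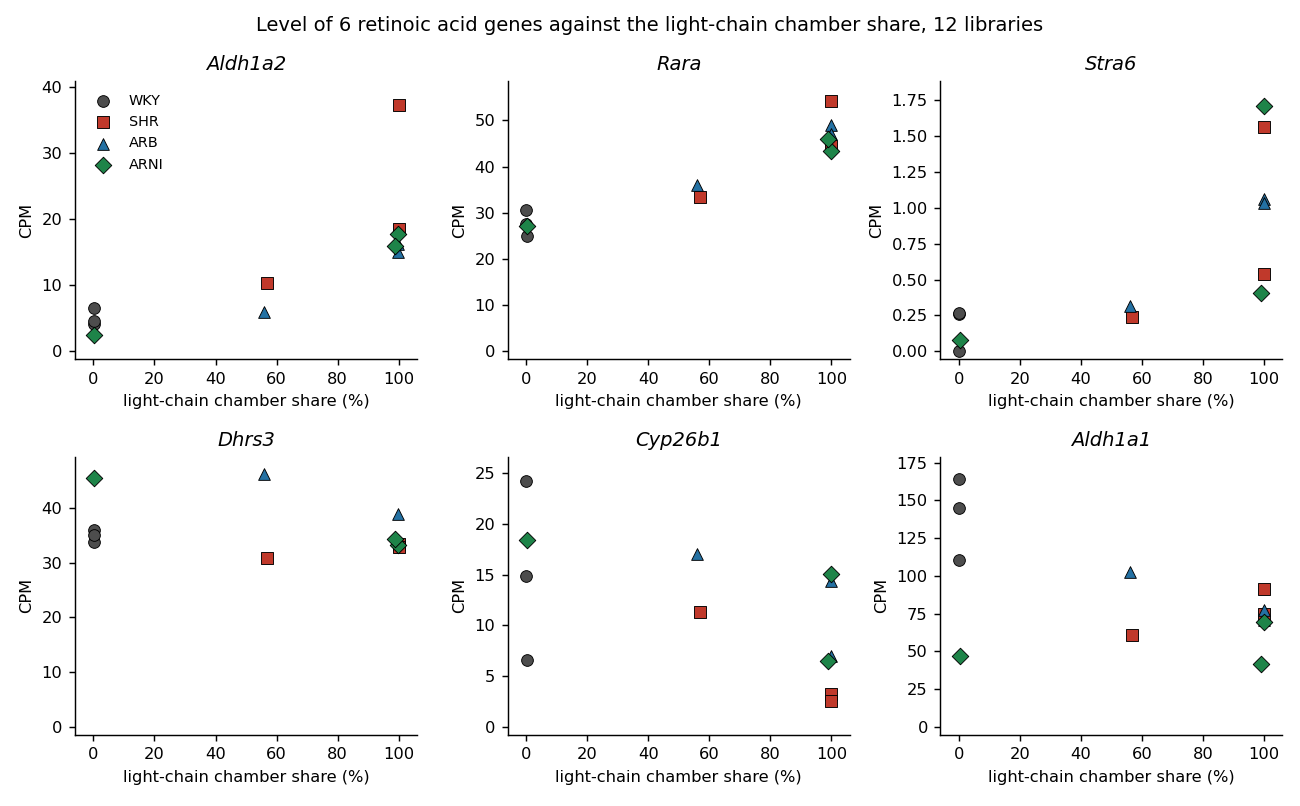
CPM of 6 retinoic acid genes in each of the 12 libraries against the light-chain chamber share in percent, with a symbol for each group. Aldh1a2 and Rara are lower at a share near 0 than near 100% (for Aldh1a2 at most 6.49 CPM against at least 15.01 CPM), while Aldh1a1 at a share near 0 spans 46.7 CPM in an ARNI library to 164 CPM in a WKY library.

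Markers of the epicardium and the mesothelium, the sheet of cells on the surface of the heart, moved with Aldh1a2. Of 8 such markers, 7 rose in the SHR group against the WKY group (median log2 fold change of the 8, 2.31, against 0.01 over all genes), and 7 rose with the light-chain share (median slope 2.96, against 0.06). Wt1 was the exception in both, at 13.6 to 21.2 CPM over the 12 libraries. Their summed level was 70.0 to 96.4 CPM in the WKY group, 264 to 565 CPM in the SHR group, 90.0 to 358 CPM in the ARB-treated group and 54.8 to 383 CPM in the ARNI-treated group. The defining markers Msln and Upk3b spanned 16.5 to 28.6 CPM and 3.83 to 7.08 CPM in the WKY group. In the SHR group they spanned 73.7 to 170 CPM and 21.6 to 51.3 CPM, with replicate 3 the highest for both. Of 6 fibroblast markers, none passed in either fit (median -0.08 between the groups and 0.06 in the slope).

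While the Aldh1a2 level spanned 2.44 to 37.2 CPM, its size relative to this sum varied less. It was 3.91 to 9.27% of the sum over the 12 libraries, at 6.28 ± 2.63% in the WKY group, 5.57 ± 1.45% in the SHR group, 5.74 ± 1.07% in the ARB-treated group and 4.61 ± 0.555% in the ARNI-treated group (SD, n = 3 each), and all groups overlapped. With the log2 of the sum as a covariate in a fit of all 12 libraries, an alternative chosen after seeing the data, the Aldh1a2 difference between the SHR and WKY groups was -0.02 (SE 0.41, edgeR adjusted p = 0.988). Over all genes, 89 were DEGs in that fit, against 579 in the same fit without the covariate, where Aldh1a2 was not a DEG either. Beside the share in the slope fit, the sum left an Aldh1a2 slope of 1.99 (SE 0.84, edgeR adjusted p = 0.361). Of the 14452 genes, 1 passed there, against 1977 without the sum, so losing the call was not particular to Aldh1a2. The part of these cells in the Aldh1a2 result was not tested further.

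**Figure D4:**
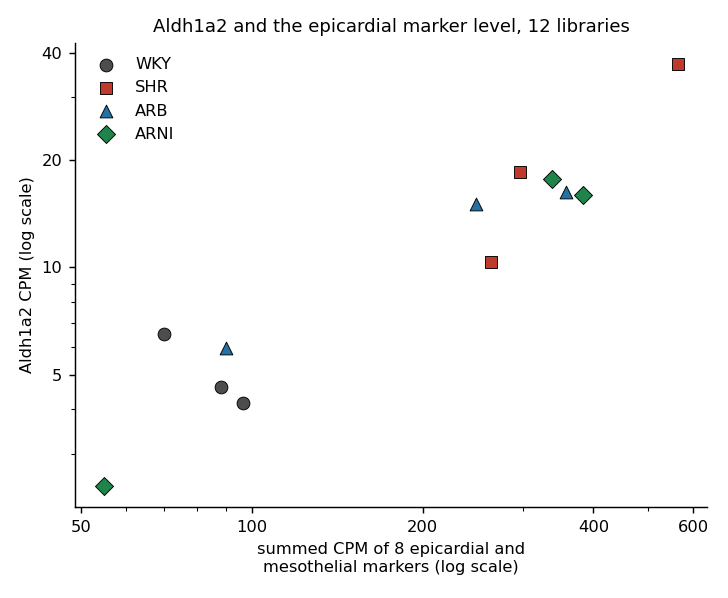
Aldh1a2 level (CPM, log scale) against the summed level of 8 epicardial and mesothelial markers (CPM, log scale) in each of the 12 libraries, with a symbol for each group. The points run from 2.44 and 54.8 CPM in an ARNI library to 37.2 and 565 CPM in an SHR library.

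The genes with the most similar pattern over the 12 libraries were named by Pearson's r of log2 CPM among 14451 genes, as a description, since the libraries share their chamber make-up. For Aldh1a2 they were Rspo1 (r = 0.97), Osr2 (r = 0.96) and Swap70 (r = 0.96). For Rara they were Stt3a (r = 0.97), Nab2 (r = 0.97) and P3h1 (r = 0.96), and for Aldh1a1 they were LOC103693257 (r = 0.94), RT1-CE5 (r = 0.93) and Rabep2 (r = 0.92). Dhrs3 was most like Nob1 (r = 0.94), Cyp26b1 like Bri3bp (r = 0.89), Rarb like LOC102553760 (r = 0.90) and Rarg like Cmklr1 (r = 0.89).

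Other genes of the retinoid pathway came from a list of 58, of which 37 passed the filter on low counts in the SHR and WKY libraries. Of these, 5 rose and 2 fell, with a median log2 fold change of 0.10 against 0.01 over all genes, and 5.54% and 3.35% of all genes rose and fell. Aldh1b1, a mitochondrial aldehyde dehydrogenase, was at 0.0852 to 0.0889 CPM in the WKY libraries and at 14.5, 4.49 and 11.7 CPM in SHR replicates 1 to 3, and at 0 in ARNI replicate 2. Rdh10, the main enzyme that oxidises retinol to retinaldehyde, lay between 3.29 and 5.29 CPM in WKY rats and between 10.4 and 18.9 CPM in SHRs and rose (log2 fold change 1.64, SE 0.29, edgeR adjusted p = 0.0149). Bco2, which cleaves carotenoids, rose by 1.71 (SE 0.29), and the orphan nuclear receptors Nr2f1 and Nr2f2, of which Nr2f2 is known from atrial muscle, rose by 1.64 (SE 0.21) and 2.02 (SE 0.34). Lrat, which esterifies retinol for storage, lay between 5.24 and 7.94 CPM in WKY rats and between 1.22 and 3.33 CPM in SHRs and fell (log2 fold change -1.66, SE 0.40, edgeR adjusted p = 0.0332). Meis2, a homeodomain factor, had a log2 fold change of -1.05 (SE 0.23, edgeR adjusted p = 0.0256).

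In the slope on the light-chain share, 8 of 38 pathway genes rose and 4 fell, against 6.67% and 7.01% of all genes. The retinoid X receptors Rxra and Rxrg, the partners of the retinoic acid receptors, fell with the share, by slopes of -1.11 (SE 0.17) and -1.10 (SE 0.12), and Rxrb had a slope of 0.02 (SE 0.14). Rxra was at 37.2 to 38.9 CPM in the WKY libraries and 40.5 CPM in ARNI replicate 2, against 16.7 to 25.1 CPM in the libraries with a share of at least 98.9%. The intracellular carrier Crabp2 (slope 1.85, SE 0.59) rose with the share, as did Bco2 (3.07), Rdh10 (1.58), Dhrs9 (3.99), Aldh1b1, Nrip1 (1.12), Nr2f1 (1.61) and Nr2f2 (2.71). Rbp7 (-2.34, SE 0.79) and Dhrs4 (-2.12, SE 0.22), a further carrier and a further reductase, fell. In the treated comparisons none of the pathway genes was a DEG.

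Several direct partners of the genes were scarce or did not pass. Aldh1a3, a further retinaldehyde dehydrogenase, spanned 1.11 to 1.83 CPM in WKY rats and 2.52 to 4.54 CPM in SHRs (log2 fold change 1.04, SE 0.30, edgeR adjusted p = 0.0534). Cyp26a1 and Cyp26c1, the relatives of Cyp26b1, were at most 0.178 and 0.0889 CPM, and Crabp1 at most 0.555 CPM. Rbp4, the plasma carrier of retinol, was at 0.0786 to 1.03 CPM in 10 libraries and at 64.4 and 20.9 CPM in ARB replicate 2 and ARNI replicate 3. The summed level of 4 adipocyte markers was 345.8 and 208.9 CPM in those 2 libraries and at most 14.1 CPM in the others.

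**Figure D5:**
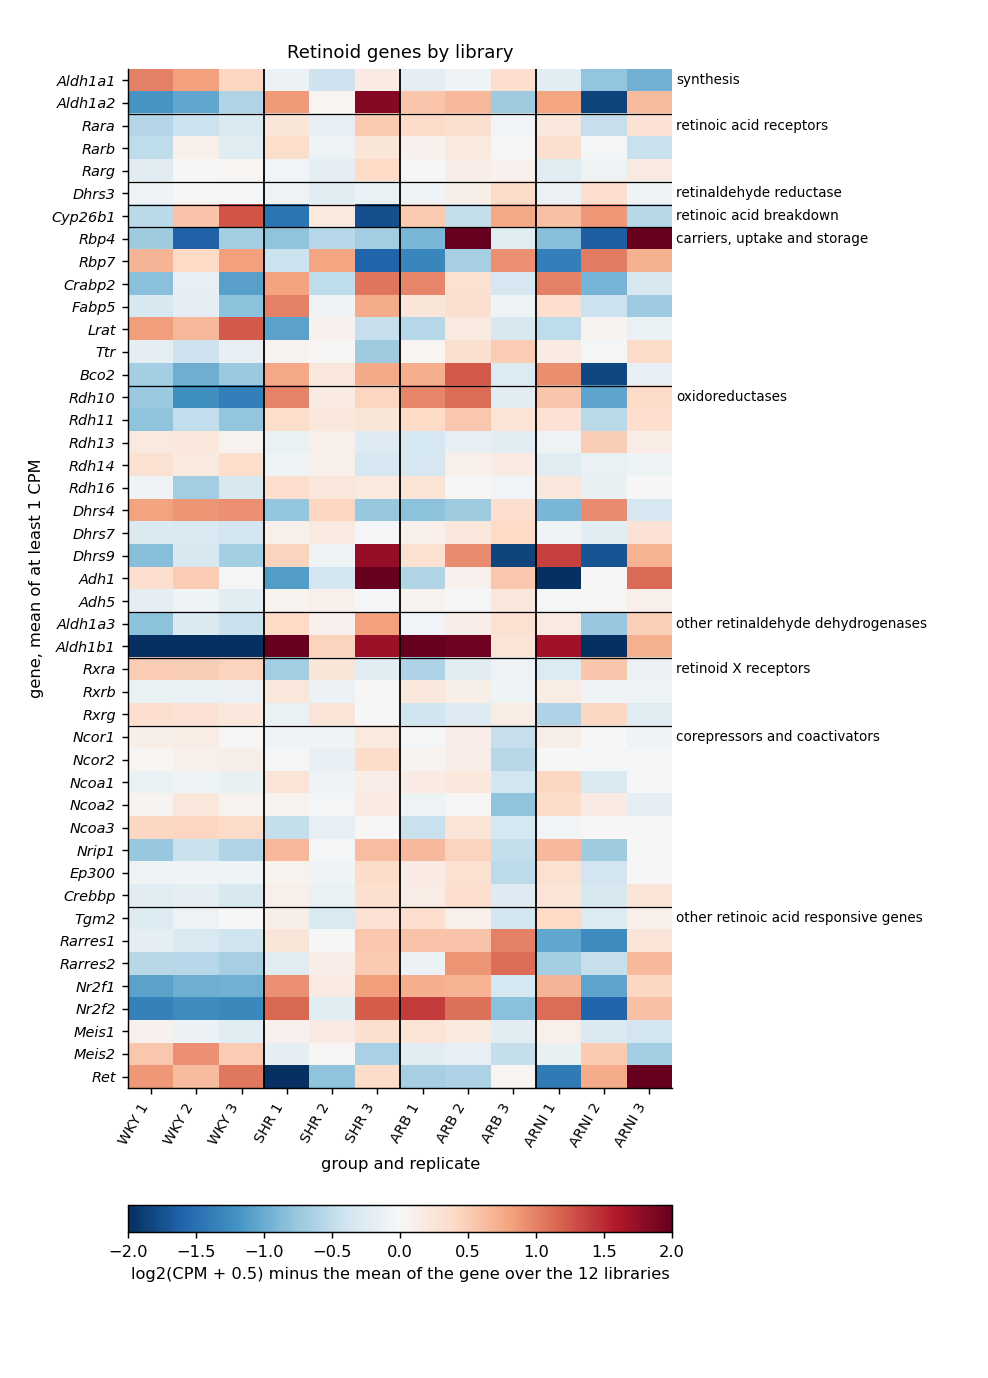
Level of 45 retinoid genes with a mean of at least 1 CPM in the 12 libraries, as log2(CPM + 0.5) minus the mean of the gene, with colours ending at -2 and 2. Aldh1a2, Rdh10, Aldh1b1, Nr2f1 and Nr2f2 are low in the WKY libraries and in ARNI replicate 2, and Aldh1a1 and Lrat are high in the WKY libraries.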

How the data were processed

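RNA from 12 libraries was analysed, 3 in each group, from separate rats per the design text. The authors filtered reads with SOAPnuke, aligned them with HISAT2 (2.0.4) to the genome and with Bowtie2 (2.2.5) to the coding genes, and RSEM gave the expected counts per gene that they deposited, which are not normalized. The build in the submitters' processing notes is Rnor_6.0. Expected counts share reads among similar genes, and 23.6% of the values deposited by the authors were fractional. The deposited table also holds the authors' own log2 fold change and its p-value for SHR over WKY, which were not used.

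Expected counts were rounded, filtered with filterByExpr and scaled by TMM, and pairs of groups went into the quasi-likelihood test of edgeR 4.0.16 (R 4.3.3) on its 6 libraries. The Benjamini-Hochberg adjustment ran over all genes tested, and DEGs were called at a log2 fold change of 1 or more in size and an adjusted p up to 0.05. Slopes on the light-chain share came from one edgeR fit of the 12 libraries with the group as a factor. DESeq2 1.42.0 was an alternative. Standard errors were derived from the F statistic. CPM of single libraries were not scaled by TMM, and the similarity of genes used log2 CPM with a prior count of 1. Intervals and detection limits (3 counts) cover counting error or model error only. The scripts were checked on simulated data with 200 changed genes. Figures used matplotlib 3.10.9.

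The genes, the pathway and marker lists and the tests were chosen with earlier results of these data known. All 8 genes were named with their values, and of the pathway list the direct partners and every gene called. Of the 58 pathway genes, Stra6l and Hoxa5 were not found by symbol and were left out, and some further genes of the pathway are not reported here. Transcript lengths were not used, so levels were not compared between genes.

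Replicate numbers are shared between groups. Deviations of same-numbered libraries from their group means correlated at 0.509, 0.464 and 0.185 in the ARNI and SHR groups, all over 0.1, so these were treated as paired in a further fit with a replicate block, which called 0 of 13955 genes, as the fit without it did. The correlations were 0.418, -0.241 and -0.254 in the ARB and SHR groups. In the ARNI and ARB groups they were 0.516, -0.445 and -0.153. The alternatives were the scaling, the filter, DESeq2, 1 fit of all libraries, covariates, a replicate block, the thresholds and leaving out each library.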

Additional observations from a re-analysis of the deposited data

How the results depend on the processing

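Between the SHR and WKY groups, 2 of the genes were called, and the number was 1 with total counts, 1 in one fit of all 12 libraries, 1 with a replicate block, 0 with the light-chain share as a covariate and 0 with the epicardial marker level as a covariate, and 0 to 2 when a library was left out. In the slope, 2 were called, and the number was 4 with the adjusted p alone, 1 without a filter on low counts (Stra6 adjusted p = 0.05002), 1 with a replicate block (Stra6 adjusted p = 0.103), 0 with the epicardial marker level beside the share, and 1 to 2 with a library left out. The same-numbered libraries of the SHR and WKY groups did not deviate together (correlations of -0.0748 to 0.0256), and the block reduced the DEGs from 1226 to 681, with Aldh1a1 at an adjusted p of 0.0529. The block changed no call of the 8 genes in the 3 treated comparisons.

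Directions turned as follows among the values given in the text. Between the SHR and WKY groups, the share covariate gave -0.0148 for Rara, -0.49 for Aldh1a2, 0.29 for Dhrs3 and 0.0247 for Rarg, and the epicardial covariate gave -0.0223 for Aldh1a2, 0.22 for Dhrs3 and 0.0151 for Rarg. Rarg was at 0.13 with total counts and 0.0708 without SHR replicate 2, and at -0.16 to 0.0708 over the leave-outs. For Aldh1a1 between the ARB-treated and SHR groups the value was -0.13 without the libraries of mixed or ventricular light chains, and -0.0331 to 0.30 over the leave-outs. Between the ARNI-treated and ARB-treated groups, Aldh1a2 was at 0.19 with the share covariate, 0.13 without those libraries and -0.41 to 0.44 over the leave-outs. There Cyp26b1 was at -0.20 with the share covariate and -0.27 to 0.48 over the leave-outs, and Dhrs3 was at 0.0039 with DESeq2, 0.0042 with RLE size factors and -0.26 to 0.17 over the leave-outs. The slopes with total counts were 0.17 for Aldh1a1, 0.18 for Rarb and 0.18 for Rarg, and with the epicardial covariate 0.45 for Aldh1a1 and 0.75 for Rarb. Over the leave-outs they were -0.39 to 0.17 for Aldh1a1, -0.32 to 0.37 for Rarb and -0.17 to 0.11 for Rarg. In the treated comparisons the small fold changes of the receptors and Stra6 also changed sign between alternatives, within -0.28 to 0.19 for the receptors and -1.61 to 1.01 for Stra6, and none passed. The cause was not tested. Of 460 values under an alternative, 388 kept their direction and their side of the threshold. The 460 do not include the receptors and Stra6 in the treated comparisons. They do include genes not called under either choice, and the adjusted p alone, which leaves the fold changes as they were.

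With total counts all genes had a median log2 fold change of 0.15 between the SHR and WKY groups, against 0.01 with TMM, and 985 genes rose and 363 fell, against 764 and 462. In the slope the median was 0.29 against 0.06, with 1466 and 693 genes against 964 and 1013. DEGs between the SHR and WKY groups numbered 2837 by the adjusted p alone, 579 in one fit of all libraries, 104 with the share covariate, 89 with the epicardial covariate and 2205 without SHR replicate 2. In the slope they numbered 4153 by the adjusted p alone and 1 with the epicardial covariate. DESeq2 called 3, 7 and 18 DEGs in the treated comparisons, and the share covariate gave 1 between the ARNI-treated and SHR groups and 1 between the treated groups. Counts of 0 to 27 limit Stra6 to large differences.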
